A study of Mus musculus with 24 samples.

Results

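Glucocorticoid and fasting response genes are genes whose transcripts are known to increase in the brain after exposure to glucocorticoid hormones or after food deprivation. The 10 genes described here, Plin4, Fkbp5, Sgk1, Tsc22d3, Zbtb16, Pdk4, Angptl4, Cdkn1a, Sult1a1 and Hif3a, are 10 of the 15232 genes in the expression table. They were chosen by name, with the higher Plin4 of the trained animals already known, so that difference is described here and not tested. All 10 were found in the table under these symbols.

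Bulk poly(A) RNA came from the frontal cortex of 24 mice, taken from its anterior cingulate area, with 1 library per animal. The 3 arms were untrained wild type (WT), untrained Thbs1/2 KO and trained Thbs1/2 KO, each with 8 animals, 4 female and 4 male. Training took place in an operant chamber, with food withheld from the time it began, per the labels' protocols, and RNA was taken soon after behaviour. Trained WT animals were not analysed here. Thbs1 and Thbs2, the 2 genes the KO label names, encode thrombospondins, secreted matrix proteins of astrocytes. Age, strain background and the design of the alleles are not given in the sources used here. Training and food deprivation came together, so they cannot be told apart in these arms.

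Thbs1 and Thbs2 went against the genotype labels. Thbs1 was at 0.254 to 0.716 FPKM (fragments per kilobase of transcript, scaled for library size) in the 8 libraries labelled WT and at 2.77 to 5.91 FPKM in the 16 labelled KO, with no overlap. Thbs2 was at 1.52 to 2.31 FPKM and 2.82 to 3.95 FPKM. The deposited values do not show which part of either gene was deleted, so they check the labels only in this sense. Arms are therefore named as labelled throughout, and every direction between them rests on those labels. The animal numbers in the labels also divide the arms. All 8 trained animals had numbers over 1000, as did 2 untrained animals labelled KO and 1 labelled WT, all 3 of them male, while the other 13 had lower numbers. Among females, animal number and training cannot be told apart. Library male untrained KO 3 stood apart, with a summed level of 6 cortical neuron markers of 38.8 FPKM, against 128 to 167 FPKM in the other 23 libraries, and a sum of 6 striatal markers of 335 FPKM, against 47.3 to 226 FPKM. In library female trained KO 1 the sum of 5 choroid plexus markers was 86.3 FPKM, against 1.72 to 13.6 FPKM in the other 23. Counts and marker values that moved without male untrained KO 3 are given beside the results below, as are the training calls without female trained KO 1.

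Glucocorticoids, corticosterone in mice, enter cells and bind the glucocorticoid receptor Nr3c1, which heat shock proteins and immunophilins hold in the cytoplasm. The bound receptor moves to the nucleus and attaches to short palindromic DNA elements near its target genes. In food deprivation, low insulin releases FoxO factors and circulating fatty acids activate PPAR receptors, and both raise enzymes that spare glucose. In the brain, many of the hormone's targets are expressed by astrocytes, oligodendrocytes and vascular cells as well as by neurons.

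The promoters were searched first, because the receptor's element is a defined sequence. RefSeq windows of build GRCm38.p6, the build named mm10 in the submitters' processing notes, were matched by symbol for 8 of the 10 genes, in 16 windows of 250 bases before to 50 bases after a start site. Zbtb16 and Angptl4 are named only. The full glucocorticoid response element, AGAACA and TGTTCT with any 3 bases between them, was present, on either strand, in 3 of 32851 windows (0.00913%), and 1 of those 3 belonged to Sgk1. The shorter element AGAACA alone, which the full element contains, was present in 19.0% of all windows and in 5 of the 16. These belonged to 3 of the 8 genes, Sgk1, Sult1a1 and Tsc22d3. Some genes, Sgk1 most of all, have windows at alternative starts. The 16 windows are therefore not 16 genes, and nothing is read from these shares. A FoxO motif, TGTTTAC, occurred in 3.65% of all windows and in 0 of the 16, and a PPAR motif, AGGTCA repeated after any 1 base, in 0.0396% and in 0 of the 16.

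The 250 bases before the start are shown 5′ to 3′ for the Sgk1 window with the full element, for the Sult1a1 and Tsc22d3 windows with the shorter element and for the Plin4 window without a match, since Plin4 gives the largest difference between arms. Capitals mark the elements. They are Sgk1 at chr10:21993640-21993889 on the plus strand, Sult1a1 at chr7:126676419-126676668, Tsc22d3 at chrX:140600523-140600772 and Plin4 at chr17:56109783-56110032, the last 3 on the minus strand.
Sgk1: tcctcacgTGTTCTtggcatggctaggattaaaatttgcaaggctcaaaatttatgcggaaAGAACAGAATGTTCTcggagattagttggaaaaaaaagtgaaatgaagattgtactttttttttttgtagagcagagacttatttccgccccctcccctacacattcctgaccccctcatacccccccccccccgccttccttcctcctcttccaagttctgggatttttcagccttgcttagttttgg
Sult1a1: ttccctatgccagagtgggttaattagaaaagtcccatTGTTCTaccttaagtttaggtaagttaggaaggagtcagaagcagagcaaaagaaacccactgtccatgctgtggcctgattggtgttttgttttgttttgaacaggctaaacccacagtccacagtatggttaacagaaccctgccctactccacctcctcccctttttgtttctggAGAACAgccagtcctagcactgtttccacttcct
Tsc22d3: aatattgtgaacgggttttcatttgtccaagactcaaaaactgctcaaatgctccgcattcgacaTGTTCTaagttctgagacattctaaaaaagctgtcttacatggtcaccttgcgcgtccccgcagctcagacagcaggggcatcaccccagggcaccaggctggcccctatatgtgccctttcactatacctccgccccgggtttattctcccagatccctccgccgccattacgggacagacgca
Plin4: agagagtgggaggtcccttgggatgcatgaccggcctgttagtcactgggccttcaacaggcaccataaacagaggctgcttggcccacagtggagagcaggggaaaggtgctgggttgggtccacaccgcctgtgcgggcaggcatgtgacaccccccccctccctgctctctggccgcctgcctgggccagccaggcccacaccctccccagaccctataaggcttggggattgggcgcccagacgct
In the Sgk1 window the full element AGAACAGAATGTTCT begins 189 bases before the start, and a further AGAACA, read on the other strand as TGTTCT, begins 242 bases before it. The short elements of Sult1a1 begin 212 and 34 bases before the start, and that of Tsc22d3 185 bases before it. A match describes letters in a window and was not tested as a binding site.

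Levels in FPKM are scaled by gene length and can be set side by side. Tsc22d3 was the most abundant of the 10, at 41.8 ± 6.74 FPKM (SD, n = 24), followed by Sgk1 at 33.7 ± 8.42, Zbtb16 at 16.6 ± 4.44, Fkbp5 at 13.3 ± 2.84 and Cdkn1a at 11.9 ± 2.33 FPKM. Sult1a1 was at 7.03 ± 1.92, Pdk4 at 4.18 ± 0.727, Plin4 at 3.71 ± 2.44, Hif3a at 1.73 ± 0.519 and Angptl4 at 0.979 ± 0.436 FPKM. The order was firm at some steps, since Sgk1 lay above Zbtb16 and Cdkn1a above Sult1a1 in all 24 libraries. Neighbours that exchanged places often were Fkbp5 and Cdkn1a, with Fkbp5 higher in 15 of 24 libraries, and Pdk4 and Plin4, with Pdk4 higher in 14 of 24. Plin4 was the most variable, since its highest library was 30.5 times its lowest. For the other 9 genes this ratio lay between 1.99 for Tsc22d3 and 4.88 for Zbtb16. In reads recovered from the FPKM values, Plin4 rested on 31 to 918 reads per library and Angptl4 on 13 to 75, so counting error is largest for Angptl4. Library depth was 12051769 to 26675569 recovered reads.

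**Figure D1:**
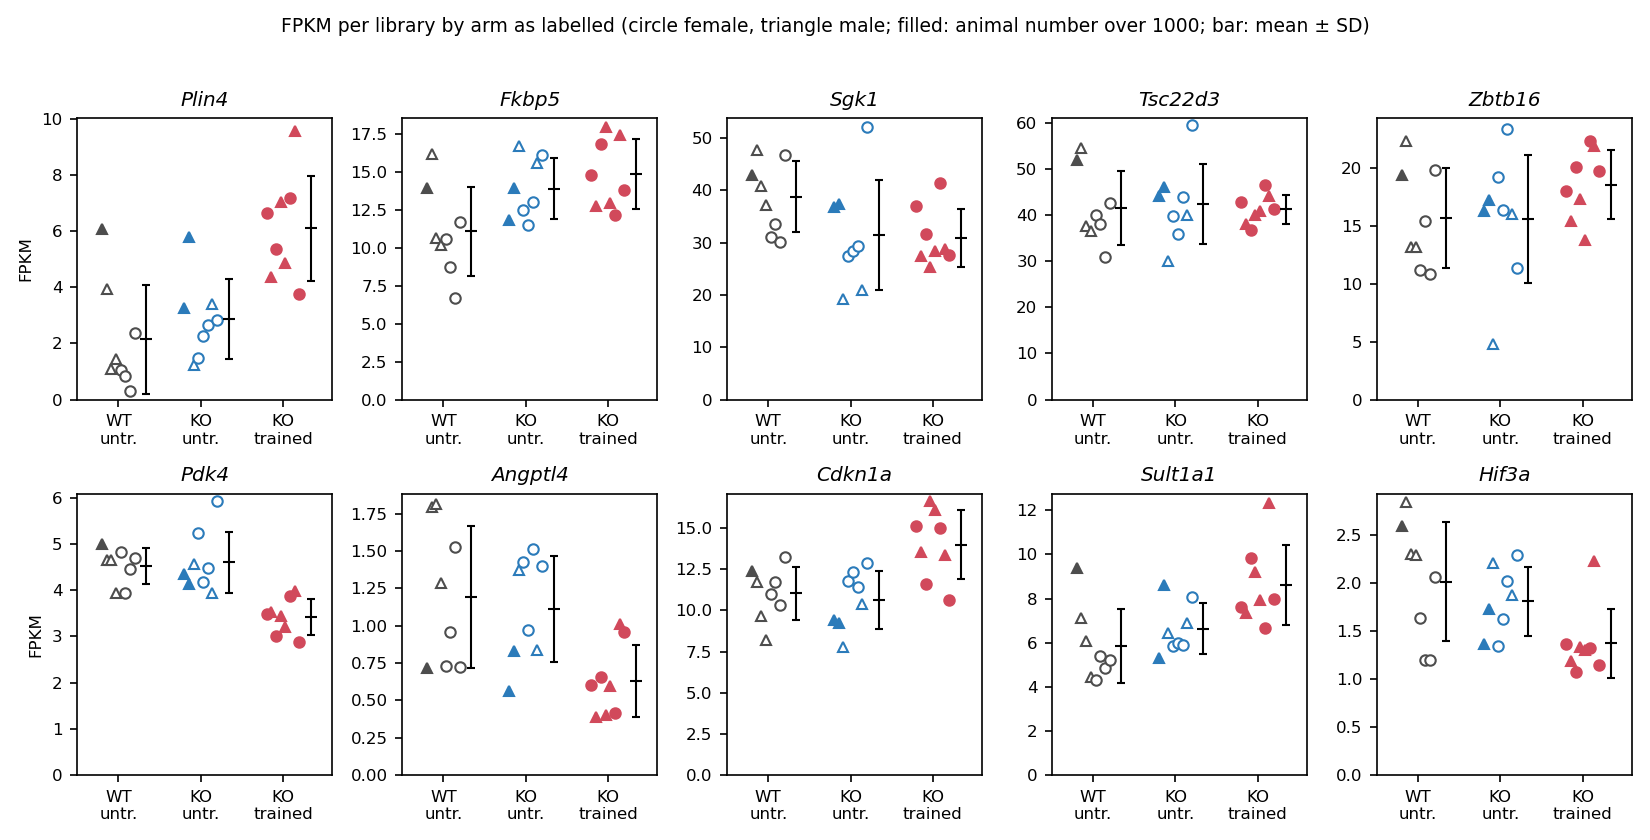
FPKM of the 10 genes in each of the 24 libraries, by arm as labelled, with circles for females, triangles for males, filled symbols for animal numbers over 1000 and bars for the mean ± SD of 8 libraries. Trained Plin4 values lie between 3.78 and 9.57 FPKM, and 7 of 8 trained Pdk4 values lie below every untrained library labelled KO.

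The comparison of trained with untrained libraries labelled KO addressed what followed training with food deprivation. Among the lipid and fuel genes, Plin4 was higher and Pdk4 and Angptl4 were lower in the trained arm, and Cdkn1a was higher. The transcripts of Fkbp5, Sgk1 and Tsc22d3, which respond to glucocorticoids in many tissues, differed little in level over all animals. Among males with numbers over 1000, however, Sgk1 was lower in the trained ones (log2 change -0.42, SE 0.0764). Since the choice of genes used this contrast, the values below are a description without a test. A limma fit over 12572 genes called 5.67% of them at an adjusted p under 0.05 (3.5% as higher, 2.17% as lower). Of the 9 genes tested here 3 were among them, Plin4 and Cdkn1a as higher and Pdk4 as lower. Angptl4, with a mean below 1 FPKM, was read from a fit without that filter, which called it lower beside 4.4% of all genes. Nothing is read from these counts. With all libraries scaled to an equal sum of FPKM the calls over all genes were 235 higher and 385 lower, against 440 and 273. Without female untrained KO 1 or female trained KO 1 they came to 330 and 332 in all, and without female trained KO 2, female trained KO 4 or female untrained KO 4 to 408, 433 and 472, against 713. None of the 10 genes had arms without overlap, beside 0.668% of all genes with every trained library above every untrained one and 0.294% with every one below. The median log2 change of the 9 genes was 0.09, against 0.01 for all genes tested.

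Plin4 encodes a perilipin, a coat protein of lipid droplets. It was at 1.22, 2.75 and 5.81 FPKM (lowest, median and highest of 8) in the untrained libraries labelled KO and at 3.78, 6.02 and 9.57 FPKM in the trained ones. The arms overlapped, since 4 of 8 trained libraries lay above the highest untrained one. The mean was 2.13-fold higher, from 2.87 ± 1.42 to 6.11 ± 1.88 FPKM (SD, n = 8), and the log2 change was 0.91 (SE 0.197). It lay between 0.78 and 1.03 when any 1 library was left out. The highest untrained value belonged to male untrained KO 2, one of the animals with a number over 1000.

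Plin4 differed by animal number as well as by training. The 3 untrained animals with numbers over 1000 were at 3.28 to 6.08 FPKM, against 0.314 to 3.95 FPKM in the 13 with lower numbers, of which the median was 1.48 FPKM. All 3 were male, so sex and number are mixed in this comparison. The 5 untrained males with lower numbers were at 1.09 to 3.95 FPKM, a range that overlaps that of the 3. Among males with numbers over 1000, Plin4 was at 4.36 to 9.57 FPKM in 4 trained and at 3.28 and 5.81 FPKM in 2 untrained animals labelled KO, with a log2 change of 0.41 (SE 0.282). When the animal number entered the fit, the change was 0.38 (SE 0.297), and no gene of the whole table had a limma adjusted p under 0.05, against 1306 at an unadjusted p under 0.05. The share of the difference that belongs to training was not tested beyond these values.

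Pdk4 encodes a kinase that switches off pyruvate dehydrogenase and so spares glucose. It was at 3.93, 4.41 and 5.94 FPKM in the untrained libraries labelled KO and at 2.87, 3.47 and 3.98 FPKM in the trained ones. Only the highest trained library, male trained KO 4, reached into the untrained range. The log2 change was -0.34 (SE 0.0735) in all animals and -0.21 (SE 0.10) among males with numbers over 1000. In those males the 4 trained values (3.20 to 3.98 FPKM) lay below both untrained ones (4.13 and 4.34 FPKM). With 2 untrained animals this rests on few values, and the share of all genes separated in this way was not computed.

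Angptl4 encodes a secreted inhibitor of lipoprotein lipase. It was at 0.566, 1.17 and 1.51 FPKM in the untrained libraries labelled KO and at 0.385, 0.601 and 1.01 FPKM in the trained ones, with 3 trained libraries below the lowest untrained one. The log2 change was -0.37 (SE 0.101) for log2(FPKM + 1), where the added 1 compresses low values, and -0.93 (SE 0.227) by limma-voom on the recovered reads. It passed in 3 of 16 fits that each left out 1 library. Angptl4 too differed by animal number. The 3 untrained animals with numbers over 1000, all male, were at 0.566 to 0.832 FPKM and the 13 others at 0.723 to 1.81 FPKM. The 5 males among those 13 were at 0.838 to 1.81 FPKM. Among males with numbers over 1000 the log2 change was -0.10 (SE 0.156).

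Cdkn1a encodes an inhibitor of cyclin-dependent kinases that halts the cell cycle. It was at 7.75, 10.9 and 12.9 FPKM in the untrained libraries labelled KO and at 10.6, 14.3 and 16.7 FPKM in the trained ones. Of the 8 trained libraries 6 lay above the highest untrained one, and the other 2 were female. The log2 change was 0.37 (SE 0.101). It passed the threshold in 6 of 16 fits that each left out 1 library. Among males with numbers over 1000 the change was larger, 0.62 (SE 0.107). There 4 trained values of 13.4 to 16.7 FPKM lay above untrained values of 9.22 and 9.40 FPKM. With 2 untrained animals this rests on few values, and 0 of 12572 genes passed in that fit. The share of all genes separated in this way was not computed.

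Sult1a1, Hif3a and Zbtb16 did not pass. Sult1a1, a sulfotransferase of phenols, was at 5.32, 6.22 and 8.60 FPKM without and 6.66, 7.97 and 12.3 FPKM with training. Its log2 change was 0.33 (SE 0.107), and 3 trained libraries lay above the untrained range. Sult1a1 also differed by animal number among untrained animals of either label. The 3 with numbers over 1000, all male, were at 5.32 to 9.38 FPKM. The 13 with lower numbers were at 4.32 to 8.07 FPKM, and 2 of the 3 lay above all of these. Hif3a, an alpha subunit of the hypoxia-inducible factors, was at 1.34, 1.80 and 2.29 FPKM without and 1.08, 1.31 and 2.23 FPKM with training, a log2 change of -0.25 (SE 0.0935). Of its 8 trained libraries 6 lay below the untrained range, but male trained KO 4 was near the top of it. The added 1 compresses the change of Hif3a too, which was -0.44 (SE 0.142) by limma-voom on the recovered reads, where Pdk4 was at -0.44 (SE 0.0905) and Cdkn1a at 0.40 (SE 0.113). Zbtb16, a zinc finger transcription factor, was at 4.80, 16.3 and 23.4 FPKM without and 13.8, 18.9 and 22.3 FPKM with training, so all its trained values lay inside the untrained range. Its log2 change of 0.32 (SE 0.202) fell to 0.13 without male untrained KO 3, the library at 4.80 FPKM. Among males with numbers over 1000 the log2 changes were 0.37 (SE 0.214) for Sult1a1, -0.03 (SE 0.167) for Hif3a and 0.01 (SE 0.156) for Zbtb16. With the animal number in the fit they were 0.34 (SE 0.184), -0.04 (SE 0.148) and -0.12 (SE 0.321), so the sign of the Zbtb16 change turned.

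Fkbp5, Sgk1 and Tsc22d3 are the members tied most closely to the receptor. Fkbp5, an immunophilin that lowers the receptor's affinity for hormone, was at 11.5, 13.5 and 16.7 FPKM without and 12.2, 14.3 and 18.0 FPKM with training, a log2 change of 0.09 (SE 0.0925). Sgk1, the serum- and glucocorticoid-regulated kinase, was at 19.1, 28.9 and 52.2 FPKM without and 25.4, 28.6 and 41.4 FPKM with training, a change of 0.02 (SE 0.151). Tsc22d3, the glucocorticoid-induced leucine zipper protein, was at 30.0, 42.1 and 59.6 FPKM without and 36.8, 41.0 and 46.6 FPKM with training, a change of -0.02 (SE 0.0976). For Sgk1 and Tsc22d3 every trained library lay within the untrained range. Among males with numbers over 1000, however, Sgk1 was at 25.4 to 28.8 FPKM in the 4 trained animals. The 2 untrained ones were at 36.9 and 37.3 FPKM, a log2 change of -0.42 (SE 0.0764). Tsc22d3 was at 38.2 to 44.1 FPKM and at 44.2 and 46.1 FPKM in the same animals, a change of -0.15 (SE 0.0783). For Fkbp5 the change there was 0.22 (SE 0.155). With the animal number in the fit the changes were 0.26 (SE 0.150) for Fkbp5, -0.50 (SE 0.202) for Sgk1 and -0.21 (SE 0.158) for Tsc22d3. The direction of Sgk1 thus differed between all animals and the males with numbers over 1000, and the difference itself was not tested. The share of all genes with every trained value below both untrained ones in those males was not computed.

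**Figure D2:**
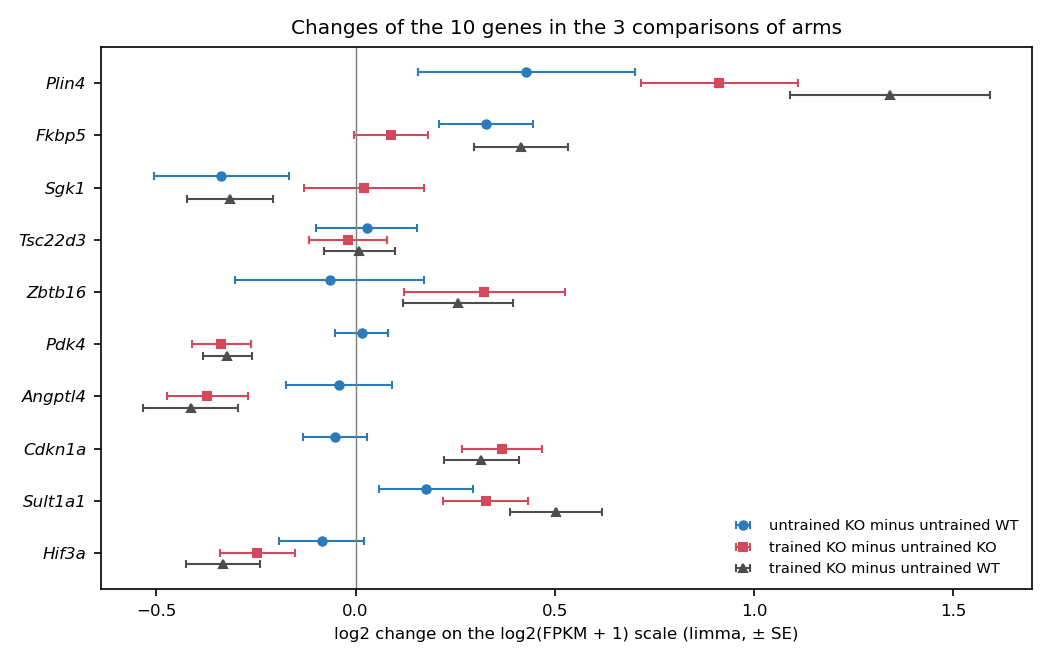
Log2 change ± SE from limma on log2(FPKM + 1) for each of the 10 genes in the 3 comparisons of arms, 8 libraries per arm, with the untrained arm labelled WT and each arm labelled KO entering 2 of them. Plin4 has the largest change in both comparisons with the trained arm, 0.91 and 1.34, and the genotype-label changes of Pdk4 and Cdkn1a are 0.02 and -0.05.

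The cells in the tissue could also differ between the arms, and in bulk RNA fewer cells of a type and less RNA per cell cannot be told apart. The 6 oligodendrocyte markers summed to 585 to 1102 FPKM without training and to 894 to 1506 FPKM with it, in libraries labelled KO. The 585 FPKM belonged to male untrained KO 3, and the other 7 untrained libraries were at 971 to 1102 FPKM. All 6 markers had positive log2 changes with training, with a median of 0.29, and 0 of 6 passed in limma, beside 5.67% of all genes. Without male untrained KO 3 the 6 changes were still positive, with a median of 0.19. Then 1 of 6 passed, Ermn (log2 change 0.33, SE 0.0937, limma adjusted p = 0.0429), beside 6.78% of all genes. The 6 astrocyte markers summed to 598 to 763 FPKM without and 590 to 725 FPKM with training, and 0 of 6 passed. The 6 endothelial and mural markers summed to 52.1 to 74.9 FPKM without and 58.2 to 80.5 FPKM with training. Of these 2 passed, Ly6c1 higher (log2 change 0.49, limma adjusted p = 0.00763) and Pdgfrb lower (-0.28, limma adjusted p = 0.0311), beside 3.5% of all genes higher and 2.17% lower. Ly6c1 passed in all 16 fits that left out 1 library and Pdgfrb in 8. Of 6 microglial markers 0 passed, with sums of 92.5 to 114 FPKM and 92.1 to 104 FPKM. No marker of these 4 lists was at 0 throughout. Of 6 neuronal, 6 striatal and 6 cortical neuron markers 0 passed, with median log2 changes of -0.07, -0.11 and 0.28. Without male untrained KO 3 these medians were -0.12, 0.15 and 0.12, and again 0 passed. Of 5 choroid plexus markers 1 was tested, at a log2 change of 0.46, and it did not pass. No blood marker was tested. Their part in the values of the 10 genes was not tested.

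The comparison of untrained libraries by genotype label was not used to choose the genes, and here each can be tested. None of the 9 genes tested passed in limma, beside 1.42% of all genes (0.605% higher, 0.819% lower). Only Fkbp5 had an unadjusted limma p under 0.05, beside 1600 of all 12572 genes. It did so by limma-voom on the recovered reads too. Without male untrained KO 3 the calls over all genes went from 179 to 340 (2.7%), and without female untrained WT 3 to 115, and in both fits none of the 9 passed. Fkbp5 was at 6.70, 10.6 and 16.2 FPKM in the libraries labelled WT, a range that reached lower than that of the untrained libraries labelled KO, with a log2 change of 0.33 (SE 0.117, limma adjusted p = 0.232). Sgk1 was at 30.2, 39.1 and 47.7 FPKM in the libraries labelled WT. Of the 8 untrained libraries labelled KO 5 lay below that range and 1 above it, and the log2 change was -0.34 (SE 0.169, limma adjusted p = 0.428). Plin4 was at 0.314, 1.26 and 6.08 FPKM in the libraries labelled WT, with a log2 change of 0.43 (SE 0.273, limma adjusted p = 0.564). These intervals do not show that the arms are alike, since an SE of 0.273 leaves room for a sizeable change of Plin4.

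Other genes changed less by genotype label. Angptl4 was again read without the filter, where 1.37% of all genes passed. The log2 change was 0.18 (SE 0.118) for Sult1a1, and those of Tsc22d3, Zbtb16, Pdk4, Angptl4, Cdkn1a and Hif3a lay between -0.09 and 0.03, with limma adjusted p-values of 0.580 for Sult1a1 and 0.806 to 0.947 for the other 6. Of the 10 genes 4 lie on chromosome 17 with Thbs2 (chr17:14665500-14694262), namely Fkbp5, Cdkn1a, Angptl4 and Plin4, whose starts are 13.7, 14.4, 19.1 and 41.4 Mb from the end of Thbs2. That chromosome held a larger share of genotype-label calls, 8.39% of its 572 tested genes matched to RefSeq, but none of these 4. The genotype-label and training comparisons share the untrained libraries labelled KO.

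Trained libraries labelled KO were last set against untrained libraries labelled WT, which differ in both labels. The trained arm enters the choice of genes, so this is again a description. Of the 9 genes tested 7 passed in limma, beside 24.5% of all genes, 12.9% higher and 11.5% lower. With all libraries scaled to an equal sum of FPKM the calls over all genes were 1095 higher and 2112 lower, against 1626 and 1448. Plin4 (log2 change 1.34, SE 0.25), Sult1a1 (0.50, SE 0.116), Fkbp5 (0.42, SE 0.118) and Cdkn1a (0.32, SE 0.0942) were higher. Pdk4 (-0.32, SE 0.0609), Hif3a (-0.33, SE 0.0930) and Sgk1 (-0.32, SE 0.109) were lower, and so was Angptl4 (-0.41, SE 0.119) in the fit without a filter, which called 21.4% of all genes. Leaving out 1 library in turn, Sgk1 passed in 5 of 16 fits and the other 7 in all 16. In single libraries, 7 trained Pdk4 values and 6 trained Angptl4 values lay below the lowest library labelled WT, and 6 trained Cdkn1a values lay above the highest. The arms overlapped for all 10 genes, beside 1.65% of all genes with every trained library above and 1.46% with every one below. Tsc22d3 stood at 30.8, 39.1 and 54.6 FPKM in the libraries labelled WT and had a log2 change of 0.01 (SE 0.0884).

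Males and females were compared over all 24 libraries. None of the 9 genes passed in limma, beside 28.6% of all genes. Plin4, Fkbp5 and Hif3a, 3 of the 9, had an unadjusted limma p under 0.05, beside 5063 of all 12572 genes. Over all genes 1857 were higher and 1738 lower in males, but 972 and 2600 with an equal sum of FPKM. Hif3a came closest, at 1.94 FPKM in males and 1.52 FPKM in females on average, a log2 change of 0.21 (SE 0.0834, limma adjusted p = 0.0585). By limma-voom on the recovered reads it passed (0.35, SE 0.127, limma-voom adjusted p = 0.0435), and it passed in 4 of the 24 limma fits that left out 1 library, those without male untrained KO 1, male trained KO 1, female untrained KO 3 or female untrained KO 4. Over all genes 3473 of 12558 passed by limma-voom, and 3027 to 3713 of 12572 in those 4 fits. Without male untrained KO 3 Plin4 passed (lowest limma adjusted p over the 24 fits that left out 1 library, 0.0372), beside 33.0% of all genes.

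The change with training was also compared between the sexes, and none of the 9 genes passed, beside 0.00795% of all genes, which is 1 gene of 12572. That number was 194 without male untrained KO 3, 44 without male trained KO 3, 32 without male trained KO 4, 12 without male untrained KO 4 and 0 to 3 without any other library, and none of the 9 passed in these fits. Beside 1952 of 12572 genes in limma, Cdkn1a alone had an unadjusted p under 0.05, by limma and by limma-voom. It went from 12.1 ± 0.638 to 13.1 ± 2.31 FPKM in females and from 9.18 ± 1.08 to 14.9 ± 1.70 FPKM in males (SD, n = 4). The male change exceeded the female change by 0.55 in log2 units, with an SE of 0.155 and a limma adjusted p = 0.118, which does not pass. Plin4 went from 2.31 ± 0.603 to 5.75 ± 1.52 FPKM in females and from 3.43 ± 1.88 to 6.46 ± 2.37 FPKM in males (SD, n = 4), a difference between the changes of -0.21 (SE 0.407, limma adjusted p = 0.843).

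The glucocorticoid and fasting programmes contain further genes, and lists of these were examined in the same fits. The lists were chosen with earlier results of these data known. Their counts and p-values are therefore a description and no independent support. With training, 5 of the 11 genes of the receptor machinery rose and none fell, beside 3.5% of all genes higher. Stip1, which links the chaperones of the receptor, rose from 71.2 ± 5.77 to 91.0 ± 4.07 FPKM (log2 change 0.35, SE 0.0487, limma adjusted p = 0.000773). Hspa8, a constitutive heat shock protein, rose by 0.27 (limma adjusted p = 0.00255) and Fkbp4, the immunophilin that competes with Fkbp5 for the receptor, by 0.28 (limma adjusted p = 0.0156). The chaperones Hsp90ab1 (0.15) and Ptges3 (0.19) passed in only 6 and 5 of the 16 fits that left out 1 library, and neither passed with all libraries scaled to an equal sum (limma adjusted p = 0.0753 and 0.105). The receptor genes Nr3c1 and Nr3c2 had changes of 0.04 (SE 0.0691) and -0.13 (SE 0.191), and the median of the list was 0.04, against 0.01 for all genes. These proteins also serve many clients other than the receptor.

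Among 18 other glucocorticoid targets tested, 0 rose and 1 fell, beside 3.5% of all genes higher and 2.17% lower. The gene that fell was Klf15, a transcription factor that glucocorticoids and fasting are known to raise, from 12.5 ± 1.70 to 9.39 ± 0.860 FPKM (log2 change -0.37, SE 0.0800, limma adjusted p = 0.0152). The list's median was 0.06. Among 17 fasting genes 0 rose and 1 fell, beside the same shares of all genes, and the list's median was -0.05. The gene that fell was Txnip, a regulator of glucose uptake, at 10.1 ± 1.65 FPKM without and 7.52 ± 0.882 FPKM with training (log2 change -0.38, SE 0.0863, limma adjusted p = 0.0197). Of 14 paralogues of the 10 genes only Fkbp4 passed, which the machinery list also holds, beside 5.67% of all genes. The median was 0.00. When the animal number entered the fit, the changes were 0.35 for Stip1, 0.27 for Hspa8, 0.17 for Fkbp4, -0.37 for Klf15 and -0.43 for Txnip, but 0 of these passed.

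By genotype label, 1 gene of all these lists passed. Ucp2, a mitochondrial carrier counted with the fasting genes, rose from 8.79 ± 1.73 FPKM in the libraries labelled WT to 11.6 ± 2.08 FPKM in the untrained libraries labelled KO (log2 change 0.36, SE 0.0709, limma adjusted p = 0.0124), beside 0.605% of all genes higher. The call stood in all 16 fits that left out 1 library. Without male untrained KO 3 1 more fasting gene passed, Ppargc1a, a coactivator of mitochondrial and fasting genes (log2 change 0.22, limma adjusted p = 0.0406). In that fit 1.31% of all genes passed as higher. None of the 11 genes of the receptor machinery, the 18 other glucocorticoid targets or the 14 paralogues passed.

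**Figure D3:**
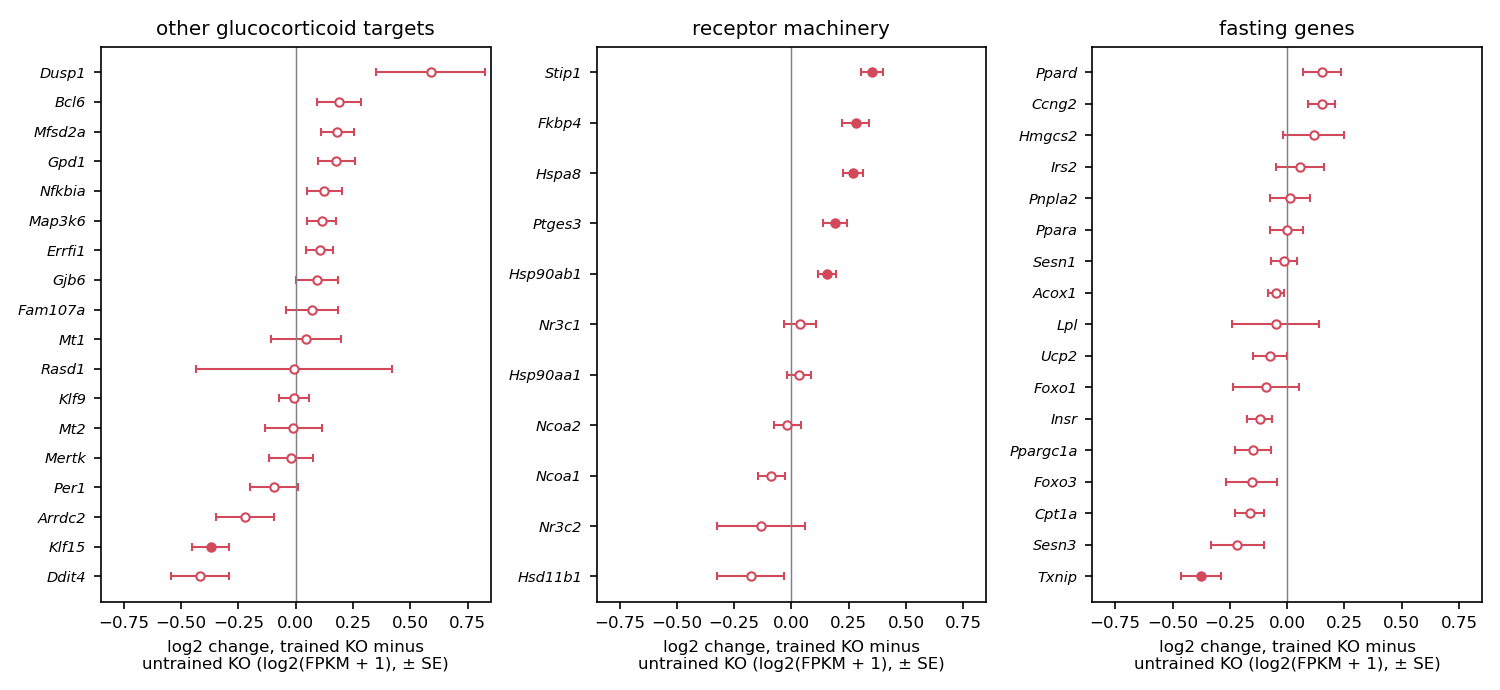
Log2 change ± SE from limma, trained minus untrained libraries labelled KO, for other glucocorticoid targets, receptor machinery and fasting genes, with filled circles for adjusted p under 0.05. Of the machinery genes 5 are filled and lie above 0, while Klf15 and Txnip are the filled circles below 0.

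Some pairs of the 10 genes varied together within the arms. After each gene was centred within arm and sex, 38 of the 45 pairs correlated positively over the 24 libraries, with a median Pearson r of 0.339. Over all pairs of the 12572 genes, centred in the same way, 50.3% were positive and the median r was 0.002. A permutation test that exchanged libraries within arm and sex, adjusted over the 45 pairs, passed 9 pairs by Pearson's r and 9 by Spearman's rho, of which 8 were shared, and all had positive r. Pdk4 and Angptl4 were in none of them. The share of all gene pairs that would pass this test was not computed. The strongest pair was Plin4 with Tsc22d3, at r = 0.784 (permutation adjusted p = 0.00405; unadjusted 0.000180) and rho = 0.843 (permutation adjusted p = 0.000675). Sgk1 with Tsc22d3 was next, at r = 0.777 and rho = 0.773 (permutation adjusted p = 0.00225 and 0.000675).

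Plin4 was in 4 of the 9 pairs, Sgk1, Tsc22d3 and Cdkn1a in 3 each. Besides those given, the pairs that passed by both measures were Fkbp5 with Hif3a (r = 0.689), Plin4 with Zbtb16 (0.687), Plin4 with Cdkn1a (0.676), Tsc22d3 with Cdkn1a (0.614), Fkbp5 with Sult1a1 (0.609) and Plin4 with Sgk1 (0.600). Sgk1 with Cdkn1a passed by r only (0.480) and Plin4 with Hif3a by rho only (0.544). When the 2 libraries farthest from the median of the first gene were left out, these r values ranged from 0.339 to 0.767. Without male untrained KO 3, 12 pairs passed by Pearson's r, but Plin4 with Zbtb16, Plin4 with Cdkn1a, Tsc22d3 with Cdkn1a and Sgk1 with Cdkn1a no longer did. Within the animals with numbers under 1000 (n = 13) 9 pairs passed by Pearson's r and 0 by Spearman's rho, and Plin4 with Tsc22d3 was at r = 0.802. Within those over 1000 (n = 10) 0 pairs passed, 4 had an unadjusted permutation p under 0.05, and the same pair was at r = 0.608.

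Angptl4 had negative r with most of the other genes over the 24 libraries, but 0 of its 9 pairs passed. Its median r with the other 9 genes was -0.299, and its lowest was -0.530 with Cdkn1a (permutation adjusted p = 0.104). With Fkbp5, Sult1a1 and Hif3a its r was positive. The sign did not hold in the animals with numbers over 1000. There its r was positive with Plin4, Fkbp5, Tsc22d3, Zbtb16, Sult1a1 and Hif3a and negative with Sgk1, Pdk4 and Cdkn1a. Single libraries held the extremes of several genes, not always on the same side. In the arm labelled WT, female untrained WT 3 was the lowest library for Plin4, Fkbp5, Sgk1, Tsc22d3 and Zbtb16, and male untrained WT 2 was the highest for Fkbp5, Sgk1, Tsc22d3, Zbtb16 and Hif3a, while male untrained WT 1 was the highest for Plin4, Pdk4 and Sult1a1 and the lowest for Angptl4. Among untrained libraries labelled KO, female untrained KO 4 was the highest for 5 genes and male untrained KO 3 the lowest for 5 and the highest for Fkbp5. Among trained libraries, male trained KO 4 was the highest for 5, Plin4, Pdk4, Angptl4, Sult1a1 and Hif3a, and female trained KO 3 was the highest for Sgk1, Tsc22d3 and Zbtb16 and the lowest for Fkbp5 and Sult1a1.

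**Figure D4:**
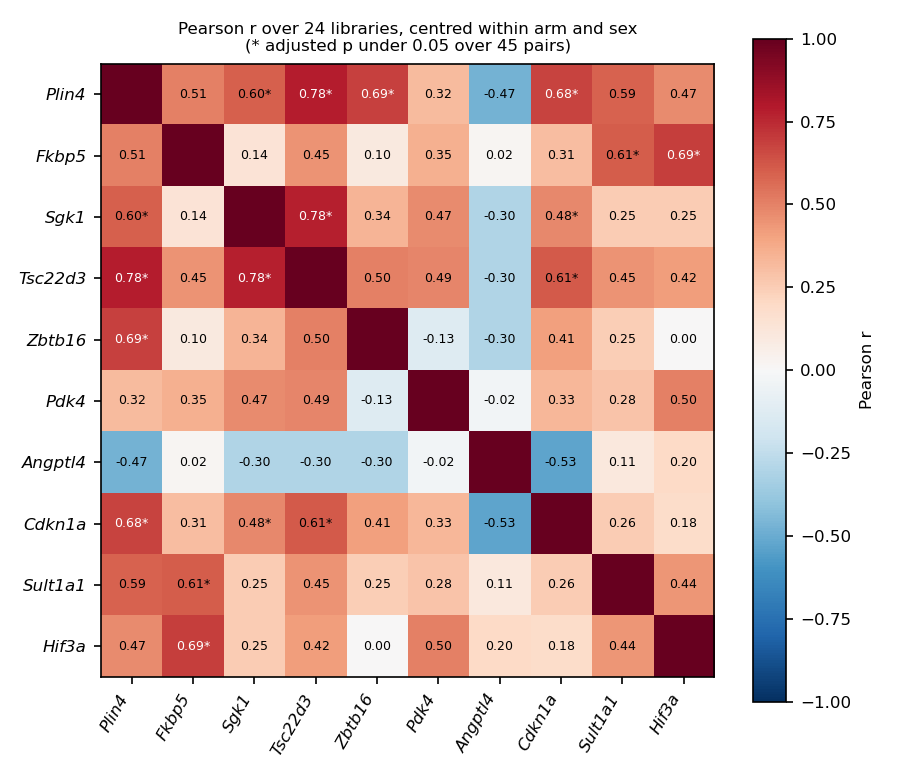
Pearson r between the 10 genes over 24 libraries, from log2(FPKM + 1) centred within arm and sex, with a star where the permutation adjusted p over 45 pairs is under 0.05. Plin4 with Tsc22d3 (0.78) and Sgk1 with Tsc22d3 (0.78) are the strongest pairs, and the Angptl4 row holds most of the negative values.

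Over all 12572 genes, the 5 whose centred values were most like those of Plin4 were Kirrel2 (r = 0.909), Spns2 (0.824), Cdh19 (0.805), Cdc37l1 (0.793) and Daam2 (0.788), over the same 24 libraries. Tsc22d3 followed at rank 6, Zbtb16 stood at rank 66 and Cdkn1a at rank 85. Sgk1 was at rank 259, Sult1a1 at 289, Fkbp5 at 738, Hif3a at 974 and Pdk4 at 2607, and Angptl4 was not among the genes compared. Without male untrained KO 3 the r of Kirrel2 was 0.893 and that of the other 4 lay between 0.746 and 0.811. These values are a description, since the genes share libraries and depth.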

How the data were processed

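The authors deposited 1 table of FPKM values, which are scaled for gene length and library size; the program that made them, the annotation and the gene filter are not given in the sources used here. The submitters' processing notes name FastQC 0.11.7, Trimmomatic 0.38, STAR 2.5.3a, featureCounts, Subread 1.6.3 and the build mm10. Groups and sex came from the labels, and columns were matched to samples by animal number. Within a gene FPKM are whole multiples of 1 read, and reads were recovered for 15217 of 15232 genes (99.99% of values whole within 0.01 read), giving 12051769 to 26675569 reads per library. Recovered reads cover counting error only.

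The limma package (3.58.1, under R 4.3.3, trend=TRUE) was run on log2(FPKM + 1), with sex as a covariate and only the 2 arms compared in each fit. Genes under a mean of 1 FPKM were left out, which kept 12572. P-values were adjusted by Benjamini-Hochberg over all genes, with a threshold of 0.05. Angptl4 (mean 0.979 FPKM) was read from fits without the filter, a choice made after seeing the data. Tested on simulated data of 12572 genes with 200 changed 2-fold, for the genotype-label comparison, it recovered 190, each with the correct sign, and made 8 other calls. The sex effect was fitted over 24 libraries with arm as a covariate, and training by sex as an interaction. Pairs were tested with 100000 permutations, 2-sided, with numpy 2.4.6 in Python 3.11.15. Lists were described by counts and medians.

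The genes named are the 10 members, called list genes, the 5 genes most like Plin4, Thbs1 and Thbs2; Ly6c1, Pdgfrb, Ppargc1a, Nr3c1 and Nr3c2 were chosen after their values were seen. Members and lists were chosen with earlier results of these data known. Alternatives were limma without the filter or with one at 5 FPKM, a pseudocount of 0.1, median-ratio and equal-sum scaling, limma-voom on recovered reads, no sex covariate, all 24 libraries in one fit, a replicate block, the animal number as a covariate, males over 1000 only and each library left out. Added after seeing the data were genotype label in animals with numbers under 1000, training in the 14 libraries of the block fit with no block, markers without male untrained KO 3, and the correlations over all gene pairs.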

Additional observations from a re-analysis of the deposited data

Results flagged for a closer look

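Hif3a in the library male trained KO 4 was at 2.23 FPKM, while the other 7 trained libraries were at 1.08 to 1.36 FPKM, so that its gap to the nearest library was 0.751 of the range of the arm. Of 30 groups of 8 values examined, 10 genes in 3 arms, it was the only value past the cutoff for a value that stands apart. Chance passes that cutoff in about 1 of 20 groups, or 1.5 of the 30, so 1 such value is no more than chance would give. Without that library the Hif3a change with training passed the threshold in limma, with a log2 change of -0.31, against -0.25 in all libraries. In that fit 945 of 12572 genes passed.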

How the results depend on the processing

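The counts of the 10 genes that passed leave out Angptl4 in every fit but the one without the filter, so they cover at most 9 genes elsewhere. For genotype label the count was 0 under every alternative tried, and for training by sex too. For training, 3 passed, but 1 with a mean FPKM of at least 5 (6 genes tested), 1 with the replicate block, and 0 with the animal number as a covariate or in males over 1000, where the 2 untrained animals are few; the count was 2 to 4 without 1 library. Of the other list genes, 7 passed for training, but 0 with the replicate block, the number covariate or males over 1000, 3 in the 14 libraries of the block fit with no block term, and 5 to 8 without 1 library; for genotype label 1 passed, 0 with no sex covariate and 1 to 2 without 1 library. For trained against WT, 7 passed, 4 with a mean FPKM of at least 5, and 6 to 7 without 1 library. For sex, 0 passed, 1 by limma-voom, and 0 to 1 without 1 library. Of 45 pairs 9 passed, and 0 in animals over 1000. Over all genes, the block took the training calls from 713 to 29. That fit leaves out female trained KO 4, which has no number, and female untrained KO 4, and the same 14 libraries with no block gave 248. Scaling to an equal sum gave 235 higher and 385 lower, against 440 and 273. The replicate numbers name different animals, and same-numbered libraries deviated together with a mean r of 0.02, -0.07 and -0.10 in the 3 comparisons, so the block is no pairing.

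Small changes reversed. The training change of Zbtb16 was -0.12 with the number covariate and that of Sgk1 -0.50, against 0.32 and 0.02. In animals under 1000, the genotype-label changes of Angptl4 and Hif3a were 0.0285 and 0.0289. The sex change of Tsc22d3 was -0.0305 with an equal sum, and its training-by-sex change was -0.0331 with the replicate block. Without 1 library, genotype-label changes ranged from -0.0923 to 0.0205 (Angptl4), -0.0275 to 0.0402 (Pdk4), -0.0526 to 0.103 (Tsc22d3) and -0.158 to 0.145 (Zbtb16). The training changes of Sgk1 and Tsc22d3 ranged from -0.0524 to 0.119 and from -0.0827 to 0.0520. For trained against WT that of Tsc22d3 ranged from -0.0438 to 0.0645. Sex changes ranged from -0.0726 to 0.00773 (Angptl4), -0.0467 to 0.00371 (Pdk4) and -0.0226 to 0.0683 (Tsc22d3). Training-by-sex changes ranged from -0.136 to 0.0312 (Fkbp5), -0.504 to 0.0352 (Plin4), -0.245 to 0.113 (Sgk1), -0.0317 to 0.210 (Sult1a1), -0.0280 to 0.210 (Tsc22d3) and -0.189 to 0.392 (Zbtb16). The causes were not tested. The 13 to 75 reads behind Angptl4 limit its precision.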
